A study of Mus musculus with 10 samples.

Results

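Cdkn2a, Cdkn2b, Cdkn1a, Cdkn1b, Trp53, Mdm2, Gdf15, Lmnb1 and Glb1 are 9 genes of cell cycle arrest and the p53 pathway that are often read together as marks of cellular senescence. They were chosen by gene name, and the 9 names matched 9 of the 22548 genes measured. Osteocytes, the cells embedded in mineralized bone, were isolated by serial collagenase and EDTA digestion of bone pieces after removal of the marrow, and their RNA was sequenced as 1 library per mouse to ask what osteocytes contribute to myeloma bone disease. All 10 mice were male C57BL/6 listed as 8 weeks old, with no engineered allele listed. The MM group (mice 6 to 10) had received Vk12598 cells, a single murine myeloma line, by injection into the femur, and was examined 6 weeks later. The No MM group (mice 1 to 5) consisted of control mice without myeloma cells, and the authors' methods describe control mice as injected with PBS.

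The libraries held 31099174 to 39466332 counted reads, and 3 counts, taken as the smallest detectable number, equaled 0.0760 to 0.0965 CPM (counts scaled to library size). The osteocyte markers Sost and Dmp1 were present in all 10 libraries, at 68.3 to 995 CPM and 112 to 885 CPM. All 10 lists of cell type markers were detected as well, so the RNA was not of osteocytes alone: the summed level of 10 neutrophil markers ranged from 7291 to 33440 CPM, and that of 9 erythroid markers from 950 to 61350 CPM. A pair of control libraries, No MM 3 and No MM 4, stood apart. Both lay below the other 8 for 4 of 7 osteocyte, 7 of 8 osteoblast and 6 of 7 osteoclast markers. The same held for 8 of 10 neutrophil and 9 of 9 erythroid markers, but for 0 of 7 muscle markers, beside 20.7% of all tested genes. Osteoblast markers summed to 3009 and 1810 CPM in this pair and to 12570 to 47420 CPM elsewhere. Genes annotated as immunoglobulin took 26.6% of the counts in No MM 3 and 29.0% in No MM 4, against 0.637% to 3.86% in the other 8 libraries, and 7 plasma cell markers summed to 9265 and 9283 CPM there, against 583 to 1266 CPM elsewhere. The libraries richest in plasma cell transcripts were thus labeled No MM. Whether their labels are right could not be checked here, every MM against No MM value rests on them, and the fold change of each member is given with and without this pair. No MM 1 differed in another way: its genes of at most 1000 bases deviated from their median over the libraries by a median of 0.41 on the log2 scale and its genes over 4000 bases by -0.25, while the medians of the other libraries lay between -0.11 and 0.10.

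Cells that enter senescence stop dividing through linked routes. The INK4 proteins p16 (from Cdkn2a) and p15 (from Cdkn2b) block the cyclin D kinases Cdk4 and Cdk6, which keeps the retinoblastoma protein active, while p53 (Trp53) drives transcription of p21 (Cdkn1a), an inhibitor of cyclin-dependent kinases. Mdm2 is both a target of p53 and the ubiquitin ligase that degrades it, and ARF, the other product of Cdkn2a, restrains Mdm2. Loss of lamin B1 (Lmnb1), a rise in lysosomal beta-galactosidase (Glb1) and secretion of factors such as Gdf15 are the usual accompanying marks. In bone, senescent osteocytes are known as a source of secreted inflammatory factors in aging.

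The members lie on 8 chromosomes, and Cdkn2a and Cdkn2b are neighbors. In the coordinates of the table, 68.4% of which equal those of GENCODE M21 (GRCm38), Cdkn2a spans 89274471 to 89294653 and Cdkn2b 89306289 to 89311032 on the minus strand of chromosome 4. Cdkn2a has 2 starts that give ARF and p16 from shared later exons, and its counts are per gene, so the products cannot be separated. The sequences before those starts and before Cdkn2b are shown because these adjacent genes, read from 3 separate promoters, differed in pattern among the libraries. The 250 bases before a RefSeq start (GRCm38.p6, minus strand, 5′ to 3′) are given in lower case, with matches to a motif in capitals.

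Cdkn2a, upstream start, chr4:89294620-89294869: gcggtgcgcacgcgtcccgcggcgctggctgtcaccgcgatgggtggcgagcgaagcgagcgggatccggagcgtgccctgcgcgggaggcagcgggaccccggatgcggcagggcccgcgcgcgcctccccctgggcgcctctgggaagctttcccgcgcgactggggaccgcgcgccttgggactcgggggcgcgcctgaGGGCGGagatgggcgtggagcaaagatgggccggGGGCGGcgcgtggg
Cdkn2a, downstream start, chr4:89282193-89282442: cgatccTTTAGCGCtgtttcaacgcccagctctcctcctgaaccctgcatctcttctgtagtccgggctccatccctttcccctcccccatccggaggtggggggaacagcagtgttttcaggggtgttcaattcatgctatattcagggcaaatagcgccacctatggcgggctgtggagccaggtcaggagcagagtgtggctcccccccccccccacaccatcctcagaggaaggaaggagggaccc
Cdkn2b, chr4:89311033-89311282: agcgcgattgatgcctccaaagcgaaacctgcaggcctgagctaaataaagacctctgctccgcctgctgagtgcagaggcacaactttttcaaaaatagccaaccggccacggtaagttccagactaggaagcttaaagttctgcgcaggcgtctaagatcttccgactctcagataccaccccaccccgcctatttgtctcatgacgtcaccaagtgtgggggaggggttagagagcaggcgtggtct

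The upstream Cdkn2a window was 78.4% GC with 40 CpG dinucleotides and held 2 GC boxes (GGGCGG, either strand), which 32.7% of the 32851 RefSeq windows hold. Its downstream window, at 60.0% GC and 7 CpG, held 1 E2F site (TTTNGCGC, either strand), found in 1.13% of windows. The Cdkn2b window was 53.6% GC with 12 CpG and held none of the 5 motifs searched, the others being the TATA box (TATAAA), the CCAAT box and the p53 response element. Over all windows the medians were 52.4% GC and 6 CpG.

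For Cdkn1a, the best known p53 target, the window before the upstream RefSeq start on the plus strand of chromosome 17 is shown. It held a match to the pattern used for the p53 response element, a pair of decamers with a spacer allowed between them. Only 21 windows (0.0639%) held such a match. The other Cdkn1a window and those of Mdm2 and Gdf15, the other p53 targets among the members, held 0.

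Cdkn1a, upstream start, chr17:29090729-29090978: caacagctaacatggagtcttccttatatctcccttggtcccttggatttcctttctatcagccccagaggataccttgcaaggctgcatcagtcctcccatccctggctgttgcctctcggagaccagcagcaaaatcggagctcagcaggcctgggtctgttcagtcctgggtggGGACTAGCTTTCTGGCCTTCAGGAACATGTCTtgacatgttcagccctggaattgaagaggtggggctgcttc

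The match began 73 bases before the start, and the capitals include its spacer, which is longer than a decamer. The search allowed no mismatch within a decamer, so near matches beside the capitals stay in lower case. A match is a description of letters, not of binding.

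None of the 9 genes passed the test between MM and No MM. All 9 passed the filter on low counts, and 0 of 9 had an adjusted p under 0.05 in edgeR's quasi-likelihood test, where 0 of 16186 tested genes (0%) did. At an unadjusted p under 0.05, 2 of 9 were called, Cdkn2b and Glb1, both at lower levels in MM, beside 14.1% of all tested genes (10.3% lower in MM and 3.81% higher). DESeq2, run on the same genes, called 189 (1.17%) at an adjusted p under 0.05 and 0 of the 9. The MM and No MM values overlapped for all 9 members, whereas they did not overlap for 1.41% of tested genes. Leaving out No MM 3 and No MM 4, 1 of 9 had an unadjusted p under 0.05, Cdkn1a, at a lower level in MM, beside 5.89% of tested genes (3.37% lower in MM and 2.51% higher).

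**Figure D1:**
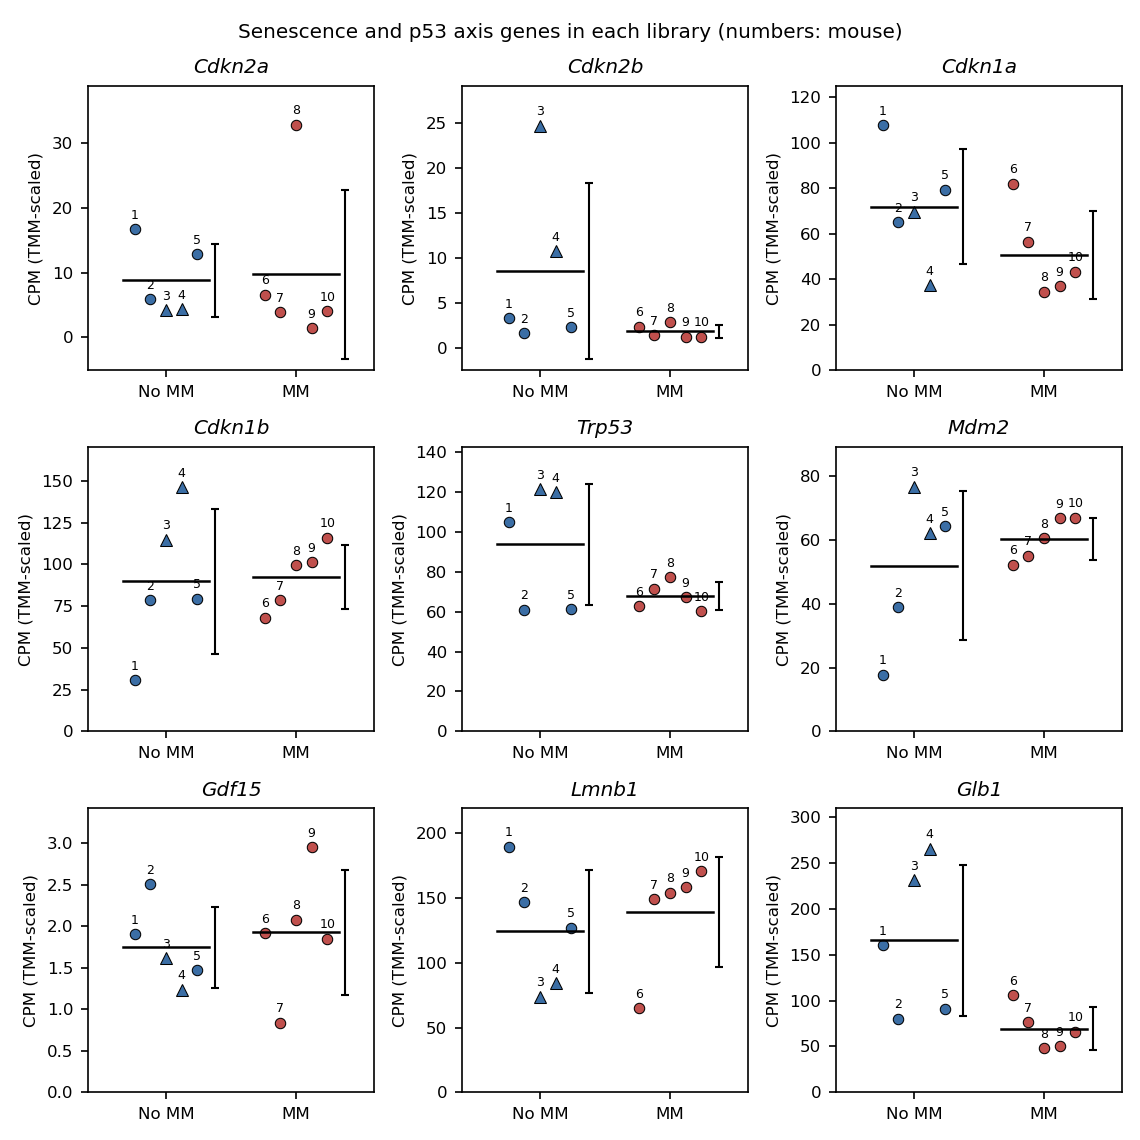
CPM (TMM-scaled, linear axes) of each of the 9 genes in each library, by group. Points are mice, numbered, triangles are No MM 3 and No MM 4, horizontal lines are group means and bars are ± 1 SD (n = 5). No panel shows separated groups, and the triangles lie above all other points for Cdkn2b, Trp53 and Glb1.

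Per kilobase of gene length, which allows levels of different genes to be compared, Glb1 was the highest member in No MM at 69.1 ± 34.4 CPM per kilobase (mean ± SD, n = 5), followed by Lmnb1 at 43.8 ± 16.6 and Cdkn1a at 37.7 ± 13.3. Trp53 (28.6 ± 9.27), Cdkn1b (19.8 ± 9.54) and Mdm2 (16.6 ± 7.50) were intermediate. Cdkn2a (9.86 ± 6.33), Cdkn2b (6.11 ± 6.99) and Gdf15 (1.13 ± 0.317) were the lowest. Each pair of neighbors in this order differed by less than the larger SD of the pair. In MM, Lmnb1 came first at 49.0 ± 14.9 and Glb1 second at 29.0 ± 9.83 CPM per kilobase. Cdkn2a and Cdkn2b varied most, with a highest level 23.9 and 20.3 times the lowest over the 10 libraries, and Trp53 least, at 2.02 times.

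The INK4 genes were weakly expressed, and a few libraries set the spread of each. Cdkn2a measured 16.7, 5.88, 4.23, 4.39 and 12.9 CPM in No MM mice 1 to 5 and 6.57, 3.92, 32.9, 1.38 and 4.03 CPM in MM mice 6 to 10. MM 8 held the highest level and MM 9 the lowest, so the MM group enclosed the No MM group. The log2 fold change, MM over No MM, was 0.15 (95% interval -1.55 to 1.84, edgeR adjusted p = 0.945), and it was -0.31 without No MM 3 and No MM 4 and -1.15 without MM 8. MM 8 also held the highest summed level of macrophage and dendritic cell markers, 2902 CPM against 746 to 2330 CPM in the other libraries. Its part in the Cdkn2a level was not tested.

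Cdkn2b measured 3.31, 1.63, 24.7, 10.7 and 2.25 CPM in No MM and 2.35, 1.38, 2.86, 1.21 and 1.25 CPM in MM. No MM 3 and No MM 4 were far above the rest, No MM 1 lay just above the MM range, and No MM 2 and 5 lay within it. Its log2 fold change was -2.23 (95% interval -3.83 to -0.62, edgeR adjusted p = 0.315). With No MM 3 and No MM 4 left out it was -0.43 (95% interval -1.34 to 0.48, edgeR adjusted p = 0.713). The plasma cell markers were high in the same pair of libraries, and in bulk RNA fewer cells of a type and less RNA per cell cannot be told apart.

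The INK4 neighbors therefore parted in that pair. The level of Cdkn2b per kilobase was 3.74 times that of Cdkn2a in No MM 3 and 1.57 times in No MM 4, but 0.0558 to 0.565 times in the other 8 libraries. Over those 8 libraries, log2 CPM of Cdkn2b and Cdkn2a had a Pearson r of 0.89 (n = 8), and over all 10 libraries of 0.08, as a description. Among the 8, MM 8 and No MM 1 were the highest for both. Mtap, which encodes the methionine salvage enzyme next to this locus (125.2 kb from Cdkn2b), was among the 3 genes most like Cdkn2b over the 10 libraries (r = 0.98, and 0.90 over the 8). Mtap measured 58.2 and 53.8 CPM in No MM 3 and No MM 4 and 18.5 to 27.5 CPM elsewhere.

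**Figure D2:**
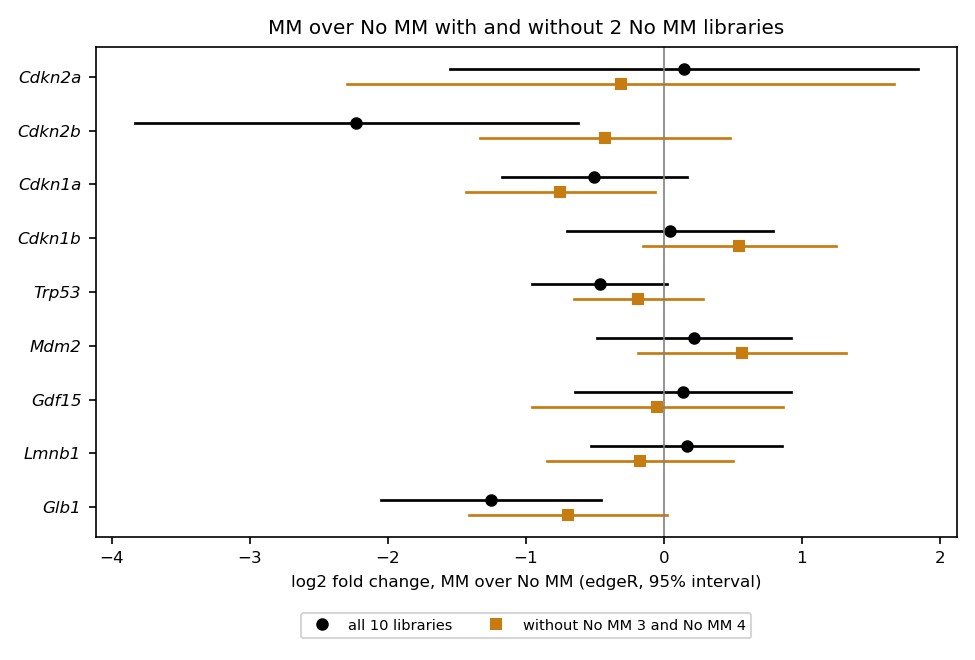
log2 fold change of each gene, MM over No MM, with its 95% interval from edgeR. Circles use all 10 libraries, and squares leave out No MM 3 and No MM 4. Cdkn2b goes from -2.23 to -0.43 and Glb1 from -1.25 to -0.69 without that pair, and Cdkn1a from -0.50 to -0.75.

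The Cip/Kip inhibitors p21 and p27 ran in opposite order across the mice, with r = -0.77 over the 10 libraries and -0.83 over the 8 without No MM 3 and No MM 4, as a description. Cdkn1a measured 108, 65.2, 69.8, 37.5 and 79.4 CPM in No MM and 82.0, 56.5, 34.6, 36.9 and 43.3 CPM in MM. No MM 1 was highest and MM 8 lowest, with MM 6 above 4 of the 5 No MM mice. Its log2 fold change was -0.50 (95% interval -1.17 to 0.17, edgeR adjusted p = 0.461). With No MM 3 and No MM 4 left out it was -0.75 (95% interval -1.44 to -0.06, unadjusted p = 0.0352, edgeR adjusted p = 0.644). Over those 8 libraries log2 CPM of Cdkn1a had r = 0.95 with the summed osteoclast markers and 0.90 with the osteoblast markers, and over all 10 libraries 0.63 and 0.51, as a description. Osteoclast markers summed to 2520 to 13790 CPM in these 8 libraries, and the part of bone cell content in the Cdkn1a level was not tested.

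Cdkn1b, which encodes p27, an inhibitor of cyclin-dependent kinases in resting cells, measured 30.8, 78.5, 114.8, 146.3 and 79.4 CPM in No MM and 68.1, 78.5, 99.5, 101.4 and 116 CPM in MM. The lowest and the highest value both came from No MM, in mice 1 and 4. Its log2 fold change was 0.04 (95% interval -0.70 to 0.79, edgeR adjusted p = 0.965), and 0.55 without No MM 3 and No MM 4 (edgeR adjusted p = 0.644). Per kilobase, Cdkn1a stood at 8.34 times Cdkn1b in No MM 1 and at 0.610 to 2.87 times in the other 9 libraries. No MM 1 is the library in which long genes were low, with a median deviation of -0.25 on the log2 scale. The Cdkn1b gene model is the longest of the members, at 4552 bases. Trp53, the next longest at 3275 bases, was high in No MM 1 (104.9 CPM), and the shorter Mdm2 (3132 bases) was low there (17.8 CPM). The part of gene length in the Cdkn1b level was not tested.

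The rest of the CDK inhibitor list showed no call. Of its 7 genes, 0 had an adjusted p under 0.05. At an unadjusted p under 0.05, 1 of the 7 was called, Cdkn2b, lower in MM, beside 14.1% of all tested genes. The median log2 fold change was -0.15 beside -0.03 for all tested genes. Cdkn2d, which encodes p19 INK4d, measured 71.2 ± 31.9 CPM in No MM and 87.5 ± 28.1 CPM in MM (mean ± SD, n = 5). Among 15 RB and G1/S genes, 1 had an unadjusted p under 0.05 with a higher level in MM and 1 with a lower level. Over all tested genes the shares were 3.81% and 10.3%. The 1 with a higher level was Rbl2, which encodes the pocket protein p130 (log2 fold change 0.42, edgeR adjusted p = 0.333). Ccnd2, which encodes cyclin D2, was the 1 with a lower level (log2 fold change -1.97, edgeR adjusted p = 0.332), at 1407 and 1019 CPM in No MM 3 and No MM 4 and 85.9 to 291 CPM elsewhere. Without that pair the log2 fold change of Ccnd2 was 0.38. Cdk4, the kinase that p16 and p15 bind, measured 193 ± 66.9 CPM in No MM and 153 ± 12.7 CPM in MM. Without the pair, 2 of the 15 had an unadjusted p under 0.05 with a lower level in MM and 0 with a higher level. Over all tested genes the shares were then 3.37% and 2.51%. The 2 genes were Cdk4 (log2 fold change -0.55) and Ccnd1 (-0.78).

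Trp53 varied least of the 9 genes. It measured 104.9, 61.1, 121, 119.9 and 61.2 CPM in No MM and 62.7, 71.5, 77.2, 67.4 and 60.1 CPM in MM. No MM 1, 3 and 4 stood above every MM mouse, and No MM 2 and 5 lay near the bottom of the MM range. The log2 fold change was -0.47 (95% interval -0.95 to 0.02, edgeR adjusted p = 0.371), and -0.19 (95% interval -0.65 to 0.28) without No MM 3 and No MM 4. The genes most like Trp53 over the 10 libraries were Pelp1 (r = 0.99), Srm (0.98) and Elp5 (0.98), and over the 8 libraries their r was 0.98, 0.96 and 0.96. Pelp1 and Elp5 lie on the same chromosome as Trp53, 801 kb and 376.3 kb away. Of the 50 genes most like Trp53, 8 (16%) were on chromosome 11, which carries 8.43% of the genes compared. This share was the largest among the 9 members, and chromosome 11 also carries more of the genes compared than any other member's chromosome. For the others the share ranged from 0% (Mdm2 and Lmnb1) to 8% (Cdkn2a, Cdkn1a, Cdkn1b and Glb1). The 8% stood beside 6.22% of the genes compared for Cdkn2a, 4.96% for Cdkn1a, 5.28% for Cdkn1b and 5.61% for Glb1. For Cdkn2b the share was 4%, beside 6.22% of the genes compared.

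Mdm2 measured 17.8, 39.0, 76.7, 62.2 and 64.3 CPM in No MM and 52.3, 55.1, 60.6, 66.8 and 67.0 CPM in MM. The MM mice lay within a narrow band inside the No MM range, whose low end was set by No MM 1 and 2. The log2 fold change was 0.22 (95% interval -0.49 to 0.92, edgeR adjusted p = 0.777), 0.57 without No MM 3 and No MM 4, and -0.00374 without No MM 1 alone. Per kilobase, Mdm2 stood at 0.177 times Trp53 in No MM 1, at 0.542 to 1.10 times in the other No MM libraries and at 0.806 to 1.17 times in MM. Mdm2 and Cdkn1b had like patterns over the libraries, with r = 0.89 (n = 10) and 0.93 over the 8, and both were low in No MM 1.

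**Figure D3:**
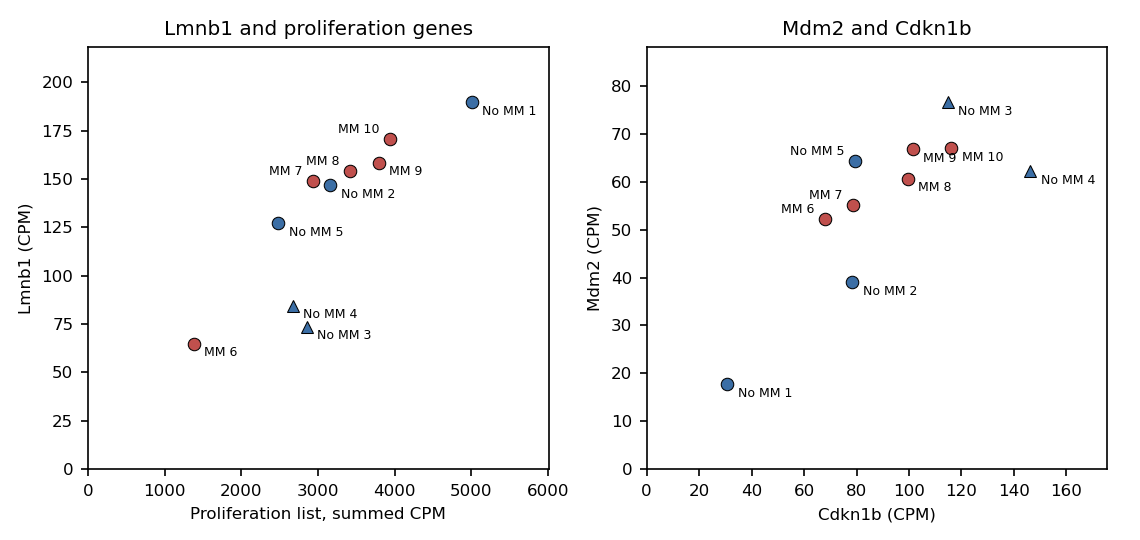
Left, CPM of Lmnb1 against the summed CPM of 16 proliferation genes. Right, CPM of Mdm2 against that of Cdkn1b. Each point is 1 labeled library, blue for No MM and red for MM, with triangles for No MM 3 and No MM 4. In the left panel the triangles lie below the line of the other libraries, at 73.7 and 84.4 CPM of Lmnb1, and in the right panel No MM 1 is at the lower left.

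Of the 16 p53 regulators listed, 15 were tested and 0 had an unadjusted p under 0.05, beside 14.1% of all tested genes. Their median log2 fold change was 0.06. Mdm4, the relative of Mdm2 that inhibits p53 without degrading it, measured 826 and 519 CPM in No MM 3 and No MM 4 and 23.7 to 188.8 CPM elsewhere. Its log2 fold change was -0.95 (edgeR adjusted p = 0.547), and 0.84 without that pair. Usp7, the deubiquitinase that stabilizes Mdm2, measured 217 ± 38.6 CPM in No MM and 262 ± 55.9 CPM in MM. Hipk2, a kinase of p53, measured 35.6 ± 13.5 CPM in No MM and 47.1 ± 8.77 CPM in MM.

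Among the 9 pathway lists, the p53 targets had the largest share of genes at which the immunoglobulin-rich pair of libraries exceeded all others. Of 32 targets tested, 0 had an adjusted p under 0.05, 10 had an unadjusted p under 0.05 with a lower level in MM and 0 with a higher level, beside 10.3% and 3.81% of all tested genes, and the median log2 fold change was -0.37 beside -0.03 for all tested genes. In the other 8 libraries, 2 of 32 had an unadjusted p under 0.05, beside 5.89% of all tested genes, and the median was 0.02. Levels in No MM 3 and No MM 4 both exceeded those of all other 8 libraries for 16 of the 32 targets (50%), where 24% of all tested genes did so, and both lay below them for Gadd45a and Sesn1 (6.25%, beside 20.7% of all tested genes). This count was made after the values were seen and carries no test. The summed level of the 32 targets was 3004 and 2863 CPM in the pair and 1045 to 1217 CPM in the other 8.

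The targets in which that pair was high included cell death effectors. Bax measured 209.7 and 189.5 CPM in No MM 3 and No MM 4 and 48.4 to 74.8 CPM elsewhere, and Bbc3, which encodes Puma, measured 49.98 and 57.3 CPM against 8.31 to 12.7 CPM. Zmat3, which encodes an RNA-binding protein, measured 75.1 and 61.3 CPM against 9.32 to 14.5 CPM, with a log2 fold change of -1.57 (edgeR adjusted p = 0.315) and of 0.05 without the pair. Eda2r, a death receptor relative, measured 25.4 and 12.1 CPM against 1.17 to 4.06 CPM. Bax, Bbc3 and Eda2r were singled out after their values were seen. Rps27l, a ribosomal protein-like target, was the 1 of those 10 with an unadjusted p under 0.05 also without the pair, with a log2 fold change of -0.66 (edgeR adjusted p = 0.315) over all libraries and -0.49 (unadjusted p = 0.0366) without the pair.

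The 3 targets that are members did not share this pattern. Cdkn1a in No MM 3 and No MM 4 (69.8 and 37.5 CPM), Mdm2 (76.7 and 62.2 CPM) and Gdf15 (1.62 and 1.23 CPM) did not both exceed the other 8 libraries. Trp53 itself did, at 121 and 119.9 CPM against 60.1 to 104.9 CPM. The plasma cell markers were high in the same libraries, and their part in the p53 target levels was not tested.

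**Figure D4:**
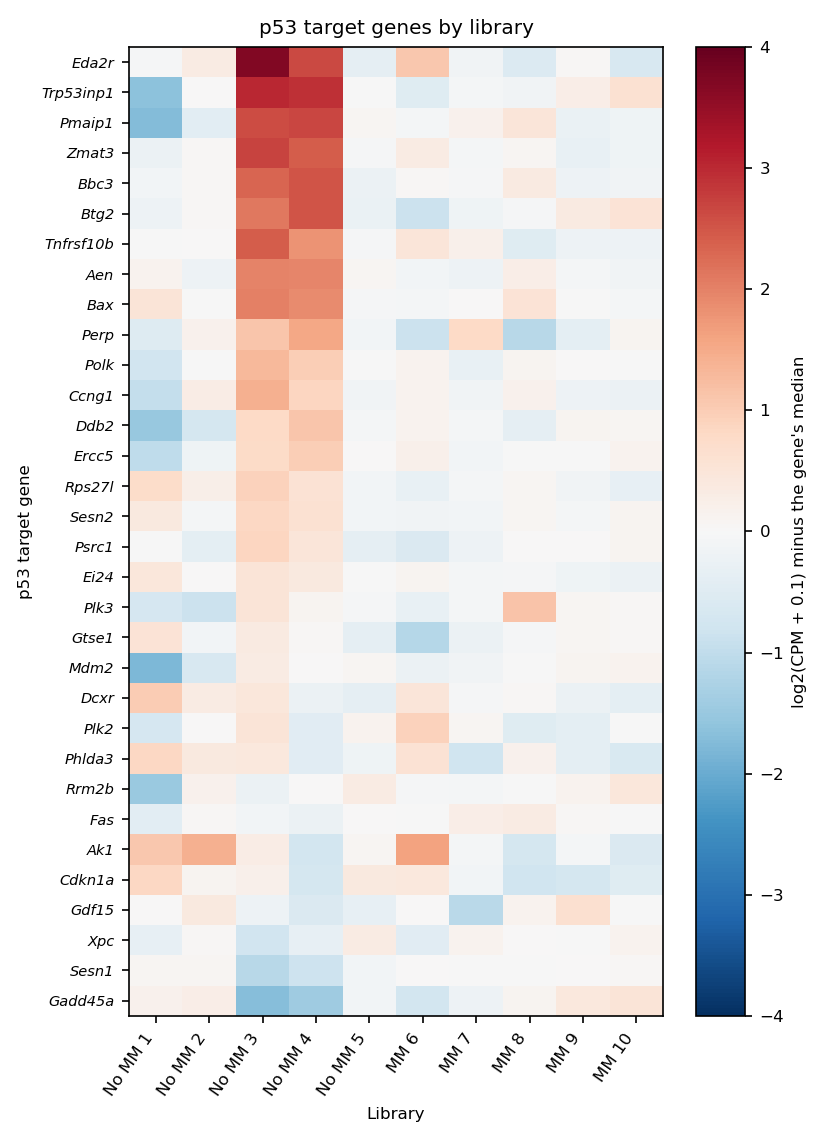
Heat map of 32 p53 targets (rows) in the 10 libraries (columns), as log2(CPM + 0.1) minus the median of the gene over the libraries, blue below and red above it, ordered by the mean of No MM 3 and No MM 4. The upper rows are deepest red in No MM 3 and No MM 4, while Cdkn1a and Gdf15 are near the bottom with Sesn1 and Gadd45a.

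Gdf15, a secreted stress factor of the TGF-beta superfamily, was the lowest member. It measured 1.90, 2.51, 1.62, 1.23 and 1.47 CPM in No MM and 1.92, 0.838, 2.08, 2.95 and 1.85 CPM in MM. MM held both the lowest and the highest value, in mice 7 and 9. Its log2 fold change was 0.14 (95% interval -0.64 to 0.92, edgeR adjusted p = 0.879), and -0.05 without No MM 3 and No MM 4.

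Of 25 senescence-associated secreted factors, 23 were tested and 0 had an adjusted p under 0.05, with a median log2 fold change of 0.17. At an unadjusted p under 0.05, 1 was called higher in MM and 1 lower, beside 3.81% and 10.3% of all tested genes. Tnf was the 1 with a higher level (log2 fold change 1.23, edgeR adjusted p = 0.332), and its highest value, 9.83 CPM, was in MM 8. Il1b, the other inflammatory cytokine named by the selection, measured 36.6 ± 33.3 CPM in No MM and 84.3 ± 38.4 CPM in MM (edgeR adjusted p = 0.358). Igfbp3, which binds insulin-like growth factors, had the lower level in MM (log2 fold change -1.52, edgeR adjusted p = 0.321), and measured 196 and 69.9 CPM in No MM 3 and No MM 4 against 9.29 to 39.4 CPM elsewhere. Without the pair 0 of 24 tested factors had an unadjusted p under 0.05, in either direction, beside 5.89% of all tested genes.

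Of 10 genes of the integrated stress response, the program driven by Atf4, 0 had an adjusted p under 0.05, and 4 had an unadjusted p under 0.05 with a lower level in MM and 0 with a higher level, beside 10.3% and 3.81% of all tested genes. Leaving out the pair, 2 had an unadjusted p under 0.05 with a lower level and 0 with a higher level, beside 3.37% and 2.51%. Chac1, which degrades glutathione, had a log2 fold change of -1.24 and of -0.71 without No MM 3 and No MM 4, and Asns, the asparagine synthetase, of -1.14 and -1.10. Their edgeR adjusted p was 0.315 over all libraries. On the other side of the list, Vldlr, a lipoprotein receptor, had a log2 fold change of 0.90 (edgeR adjusted p = 0.475) and of 0.42 without the pair, and Atf3, a stress-induced transcription factor, of 0.92 (edgeR adjusted p = 0.489) and 1.05, with 41.99 CPM in MM 8 and 4.57 to 9.11 CPM in the other libraries.

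Lmnb1, which is lost from the nuclear lamina of senescent cells, measured 189.8, 146.8, 73.7, 84.4 and 127 CPM in No MM and 64.9, 149, 154, 158 and 171 CPM in MM. No MM 3, No MM 4 and MM 6 were low, and the other 7 libraries lay at or above 127 CPM. The log2 fold change was 0.16 (95% interval -0.53 to 0.86, edgeR adjusted p = 0.833), and -0.17 (95% interval -0.85 to 0.50) without No MM 3 and No MM 4. Over the 8 libraries, log2 CPM of Lmnb1 had r = 0.97 with the summed level of 16 proliferation genes and 0.88 with the neutrophil markers, and over all 10 libraries 0.82 and 0.91, as a description. The genes most like it over 10 libraries were Pbk, a mitotic kinase (r = 0.99), Rfc1, the large subunit of the clamp loader (0.98), and Cdca7 (0.98). In MM 6, where Lmnb1 was lowest, the proliferation genes summed to 1384 CPM and the neutrophil markers to 10370 CPM, against 2931 to 3945 CPM and 23570 to 31370 CPM in the other 4 MM mice. The part of marrow cell content in the Lmnb1 level was not tested.

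Of 10 nuclear lamina genes, 0 had an unadjusted p under 0.05, beside 14.1% of all tested genes, and the median log2 fold change was 0.11. Without No MM 3 and No MM 4 the median was -0.18, with 8 lower in MM and 2 higher. Lmna was then the 1 gene with an unadjusted p under 0.05, lower in MM (log2 fold change -0.73), beside 3.37% of all tested genes. Over all libraries Banf1, which ties chromatin to the lamina, had the smallest p of the list, with 122 ± 39.4 CPM in No MM and 90.1 ± 14.1 CPM in MM (edgeR adjusted p = 0.382). Of 16 proliferation genes, 0 had an unadjusted p under 0.05, beside the same 14.1%, and the median log2 fold change was -0.12. Without No MM 3 and No MM 4, 14 of the 16 had a lower fitted level in MM and 2 a higher one. The median was then -0.40, beside -0.02 for all tested genes, and again 0 had an unadjusted p under 0.05. Mki67, the common proliferation marker, measured 819 ± 131 CPM in No MM and 907 ± 362 CPM in MM, and Mcm6, a subunit of the replicative helicase, measured 317 ± 120 CPM and 202 ± 58.1 CPM.

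Glb1 encodes the lysosomal beta-galactosidase whose activity is stained as a mark of senescence, and it had the smallest p of the 9 genes. It measured 160.3, 80.4, 231, 265 and 91.0 CPM in No MM and 106, 76.5, 48.0, 50.5 and 66.2 CPM in MM. No MM 3, 4 and 1 were above every MM mouse, and No MM 2 and 5 lay between MM 6 and MM 7. The mean was 165.6 ± 82.3 CPM in No MM and 69.4 ± 23.6 CPM in MM (SD, n = 5), with a log2 fold change of -1.25 (95% interval -2.05 to -0.45, unadjusted p = 0.00542, edgeR adjusted p = 0.315). Without No MM 3 and No MM 4 the No MM mean was 110.6 ± 43.4 CPM and the log2 fold change -0.69 (95% interval -1.41 to 0.02, edgeR adjusted p = 0.644). The gene overlaps Tmppe on the same strand, and how reads in the overlap were assigned is not given in the sources used here.

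The genes most like Glb1 over the 10 libraries were Naglu (r = 0.99), Slc38a10 (0.99) and Fut11 (0.99), with r of 0.98, 0.98 and 0.98 over the 8. Naglu is itself a lysosomal hydrolase, an enzyme of heparan sulfate breakdown, and measured 72.1, 37.6, 95.7, 95.3 and 39.2 CPM in No MM and 50.5, 34.8, 28.4, 26.2 and 33.5 CPM in MM. Its order of mice nearly repeats that of Glb1. Its log2 fold change was -0.97 (edgeR adjusted p = 0.315), and -0.54 without No MM 3 and No MM 4. Over the 8 libraries log2 CPM of Glb1 had r = 0.97 with that of Cdkn1a and with the summed osteoclast markers, and 0.38 and -0.36 over all 10. The part of osteoclast content in the Glb1 level was not tested.

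Glb1 was not alone among the listed lysosomal genes in its direction. Of 20 lysosomal genes tested, 16 had a lower fitted level in MM and 4 a higher one. Among all 16186 tested genes, 8522 had a lower fitted level and 7664 a higher one. In the list, 6 had an unadjusted p under 0.05 with a lower level (Glb1, Naglu, Gaa, Gusb, Gla and Fuca1) and 0 with a higher one. The shares over all tested genes were 10.3% and 3.81%. In the list, 0 had an adjusted p under 0.05. The median log2 fold change was -0.23 beside -0.03 for all tested genes. Without No MM 3 and No MM 4 the split was again 16 lower and 4 higher, with a median of -0.31 beside -0.02 for all genes, and 0 of 20 had an unadjusted p under 0.05, beside 5.89% of all tested genes. Both libraries of the pair exceeded the other 8 for 8 of the 20 (40%, beside 24% of all tested genes), among them Glb1, Gusb and Gaa. Gusb, the lysosomal beta-glucuronidase, measured 484 and 389 CPM in the pair and 85.6 to 194.9 CPM elsewhere. Manba and Ids, the genes with the smallest p among those at a higher level in MM, measured 39.2 ± 12.3 and 25.8 ± 5.71 CPM in No MM and 41.4 ± 7.58 and 30.4 ± 3.54 CPM in MM.

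The remaining members had these neighbors in pattern over the 10 libraries. Cdkn1a was most like Trim35 (r = 0.96), Pcdh12 (0.94) and C1qtnf1 (0.94), and Cdkn1b most like Map3k1 (0.99), Arap2 (0.98) and Rc3h1 (0.98). Mdm2 was most like Zfp101 (0.99), Nup210l (0.99) and Rnf111 (0.99), and Cdkn2b, besides Mtap, most like Clptm1l (0.98) and Gusb (0.98). For Cdkn2a the highest r was 0.90, with 4930506M07Rik, followed by 5031439G07Rik (0.89) and Sgpl1 (0.89). For Gdf15 it was 0.83, with Lrtm2, followed by Plxdc2 (0.75) and Hist1h2bc (0.74). Lrtm2 measured 0.189 to 0.827 CPM over the libraries, and its rank correlation (Spearman) with Gdf15 was 0.58. Nup210l measured 0.114 CPM in No MM 1, near the level of 3 counts, and its rank correlation with Mdm2 was 0.89. Each of these values is a description over 10 libraries whose cell content differed.

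By position in the table, Cdkn1a lies on chromosome 17 from 29090979 to 29100722, Cdkn1b on chromosome 6 from 134920401 to 134925513, Trp53 on chromosome 11 from 69580359 to 69591873, Lmnb1 on chromosome 18 from 56707813 to 56753424 and Glb1 on chromosome 9 from 114401076 to 114474376, all on the plus strand. Mdm2 lies on chromosome 10 from 117688888 to 117710758 and Gdf15 on chromosome 8 from 70629393 to 70632456, on the minus strand. All 9 are annotated as protein-coding, and counts cover whole genes.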

How the data were processed

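RNA from osteocytes of 5 No MM and 5 MM mice was sequenced as paired 76-base reads from stranded total RNA libraries, 1 per mouse. Gene lengths are as deposited. The deposited counts are whole reads per gene, made by the authors without normalization. FastQC 0.11.5 and STAR are named in the submitters' processing notes. The counting program, its strand setting, the genome build and the annotation are not given in the sources used here. The authors also deposited a signal that rescales the counts for depth and FPKM values. Their own comparison, as log2 fold changes and p-values, was deposited too. None of these columns was used.

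Counts were filtered with filterByExpr, scaled by TMM and fitted with the quasi-likelihood test of edgeR 4.0.16 (R 4.3.3), without covariates, for MM against No MM, with Benjamini-Hochberg adjustment across the 16186 genes tested. CPM is TMM-scaled, and log2 CPM used a prior count of 2. Correlations (Pearson, unless named Spearman) were taken on log2 CPM. Single values per library were compared by exact permutation tests over 252 assignments. Depth was 31099174 to 39466332 counts per library, and limits from counts cover counting error only. The alternatives were DESeq2 1.42.0, other scalings and filters, immunoglobulin genes left out, the libraries No MM 3 and No MM 4 left out, 1 surrogate variable (sva 3.50.0), an unadjusted threshold and fits without 1 mouse at a time. The fits were tested on simulated data. There edgeR called 2 of 200 genes changed by 1 on the log2 scale (1.0%) and 133 of 200 changed by 2 (66.5%). DESeq2 called 67 and 169 of them. Unchanged genes were also called in these runs, 0 and 3 by edgeR and 32 and 48 by DESeq2. With no change simulated, edgeR called 0 genes and DESeq2 17. The labels give separate mice, and no batch is named.

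The 9 genes, the 9 pathway lists and the 10 marker lists were chosen with earlier results of these data known. In each pathway list the 2 tested genes with the smallest p in each direction were named, and for each member the 3 genes with the highest correlation, without immunoglobulin genes. Promoter windows are from RefSeq (GRCm38.p6) and were found for 8 of the 9 members, with no window for Lmnb1.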

Additional observations from a re-analysis of the deposited data

Results flagged for a closer look

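Of 56 sets of 5 libraries checked for a single library far from the others (each member and each summed list in each group), 4 held one, where chance gives about 2.8. Cdkn2a in MM 8 measured 32.9 CPM, and the next MM library measured 6.57 CPM. Lmnb1 in MM 6 measured 64.9 CPM, and the next MM library 149 CPM. The proliferation genes summed to 5008 CPM in No MM 1, against 3159 CPM in the next No MM library. The muscle markers summed to 5390 CPM in MM 6, against 1782 CPM in the next MM library.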

How the results depend on the processing

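No gene was called under any of the other edgeR settings at an adjusted p under 0.05. DESeq2 called 189 genes and an unadjusted p under 0.05 called 2281, with 2 of the 9 members among the latter, and the cause of the difference between the tools was not tested. Over all alternatives the adjusted p of Cdkn2b ranged from 0.0658 to 0.713 and that of Glb1 from 0.0670 to 0.656, lowest with DESeq2. The log2 fold changes of Cdkn2b, Cdkn1a, Trp53 and Glb1 kept their sign under all 19 alternatives. With each mouse left out, that of Glb1 ranged from -1.46 to -1.02 and that of Cdkn2b from -2.50 to -1.30.

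The other 5 members changed sign. Without No MM 3 and No MM 4, log2 fold changes became -0.312 for Cdkn2a, -0.0465 for Gdf15 and -0.173 for Lmnb1. With 1 surrogate variable they became -0.142 for Cdkn2a and -0.0792 for Lmnb1. With each mouse left out, Cdkn2a ranged from -1.15 (without MM 8) to 0.511, Cdkn1b from -0.175 (without No MM 1) to 0.288, Mdm2 from -0.00374 (without No MM 1) to 0.396 and Gdf15 from -0.0641 (without MM 9) to 0.331. Cdkn2a was also -0.00107, -0.0312 and -0.0244 without No MM 2, 3 or 4, and Cdkn1b was -0.0495 without MM 10. Summed marker levels, MM minus No MM, changed sign without No MM 3 and No MM 4 to -10430 CPM for osteoblasts, 44.06 CPM for plasma cells, -4350 CPM for neutrophils and -4.801 CPM for T and NK cells. The counts of genes with an unadjusted p under 0.05 ranged from 291 (without No MM 3) to 1276 (without No MM 5) higher in MM and from 939 (without No MM 4) to 2376 (without No MM 5) lower, with each mouse left out. The higher count was also 376 without No MM 4, 370 without MM 8 and 407 without MM 9, and the lower count 941 without No MM 3 and 1084 without MM 10. No paired analysis was possible because the labels number the mice 1 to 10 across the groups.

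With 5 mice a group and a biological coefficient of variation of 0.46, the 95% interval of Cdkn2a reached from -1.55 to 1.84 on the log2 scale, and Gdf15, at 0.838 to 2.95 CPM, rested on few counts.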
